A study of Papio hamadryas with 14 samples.

Results

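The immediate early genes described here are FOS, FOSB, JUN, JUNB, EGR1, IER2, ATF3, DUSP1, ZFP36 and NR4A1, and their members were taken as all probe sets whose platform gene symbol is one of these 10 names. Symbols matched 15 of the 16186 probe sets and 9 of the 10 genes, and FOSB was not analysed here. The series profiled messenger RNA of whole baboon kidneys (Papio hamadryas), with no treatment named. Fetal kidneys came from 2 samples taken at 60 days of gestation (60dG) and from 3 samples at each of 90dG, 125dG and 160dG, described in the labels as biological replicates. Adult kidneys came from 3 animals aged 6, 12 and 7 years. RNA was hybridised to human Affymetrix arrays, so a baboon transcript that departs from its human probes can give a low signal. Tests compare a probe set with itself across arrays, and ranks within an array say only how bright or dim a probe set read. Adult samples were run on a different array type from the fetal ones, so array type and adulthood cannot be told apart.

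Immediate early genes are transcribed as soon as a cell receives a signal, without new protein synthesis, and their RNAs are short-lived. FOS and JUN family proteins pair to form AP-1, which together with EGR1, NR4A1 and ATF3 sets the next wave of transcription, while DUSP1 and ZFP36 end the response by removing phosphate from MAP kinases and by promoting decay of AU-rich RNAs. In kidney, as in other tissues, growth factors, ischaemia and handling of the tissue after removal can all induce them. The time between delivery and freezing of each kidney is not given in the sources used here, so handling and stage cannot be told apart by design.

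A 60dG array and the 90dG arrays departed from the rest. The summed signal of 7 adrenal gland genes was 7809 on 60dG replicate 2, against 244.2 to 444.8 on the other 10 fetal arrays, with STAR, the cholesterol carrier of steroid-making cells, at 1096.5 and at most 13.3 elsewhere in the fetus. The ratio of 3′ to 5′ signal of the GAPDH control probe sets, which rises with RNA breakage, was 1.78, 2.46 and 3.43 on 90dG replicates 1, 2 and 3, against 1.62 to 1.99 on the other 8 fetal arrays. Spike-in controls (geometric mean of 9 control probe sets) read 942, 1786 and 2184 on 90dG replicates 1, 2 and 3, below the 2248 to 2823 of the remaining fetal arrays. Calls of tested members and of the pathway genes named below were also fitted with 60dG replicate 2 and with 90dG replicate 3 left out. Of 11 kidney marker genes with a probe set, 10 lay above the filter described below, among them PAX8 and LRP2, and SIX2, a marker of nephron progenitors, lay below it. Median signals ran from 172.9 to 194.6 on the fetal arrays and from 210.2 to 214.4 on the adult ones.

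FOS was near the bottom of the signal range on the earliest arrays and far above it later. Its signal was 13.5 and 6.6 at 60dG, 10.3, 14.9 and 791.3 at 90dG, 145.8, 587.2 and 320.6 at 125dG, and 302.3, 380.5 and 366.6 at 160dG. Both 60dG arrays and 90dG replicates 1 and 2 lay below 15, whereas 90dG replicate 3 was the highest of all 14 arrays and every 125dG and 160dG array lay above 145. Ranked within its own array, FOS exceeded 1.51% to 5.55% of probe sets on those 4 low arrays, 87.8% on 90dG replicate 3 and 43.6% to 82.7% at 125dG and 160dG. The 3 adult arrays read 195.3, 16.5 and 383.5, so adult replicate 2 resembled the early fetal arrays and the other two the late ones.

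The mean of the log2 values of FOS lay below the filter, which kept the 8066 probe sets above the median of all (7.60 on the scale of log2(signal + 16), a signal of 178), so FOS was tested in a fit of all 16143 probe sets that are not controls. There the log2 difference of 160dG minus 60dG was 3.82 ± 1.06 (SE) and missed the threshold of 0.05 (limma, adjusted p = 0.0561), although the arrays of these stages did not overlap. Its 60dG signals are near the floor, so the size depends on the constant added before the logarithm, and it ran from 2.48 with 64 to 5.06 with 1, where it passed (limma, adjusted p = 0.0427). The difference of 90dG minus 60dG was 1.75 with all arrays and 0.14 without 90dG replicate 3, and passed in neither (limma, adjusted p = 0.406 and 0.927). The SD of its log2 value was 2.79 over the 90dG arrays and 0.17 over those of 160dG. Without 90dG replicate 3 the difference of 160dG minus 60dG passed (limma, adjusted p = 3.43e-04). So did a log2 difference of 3.49 for 125dG minus 90dG (limma, adjusted p = 0.0199). With both 90dG replicates of raised 3′ to 5′ ratio left out, 125dG minus 90dG was 3.61 (limma, adjusted p = 0.0346). With the GAPDH ratio as a covariate, the test over the 4 stages passed (limma moderated F, adjusted p = 0.00988), and 160dG minus 60dG was 3.72. Without 60dG replicate 1 or without 60dG replicate 2 it was not called (limma, adjusted p = 0.217 and 0.232). Over 17 alternatives its adjusted p ran from 3.43e-04 to 0.232. In whole tissue, fewer cells that make an RNA and less of it per cell cannot be told apart, here and for each gene below.

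**Figure D1:**
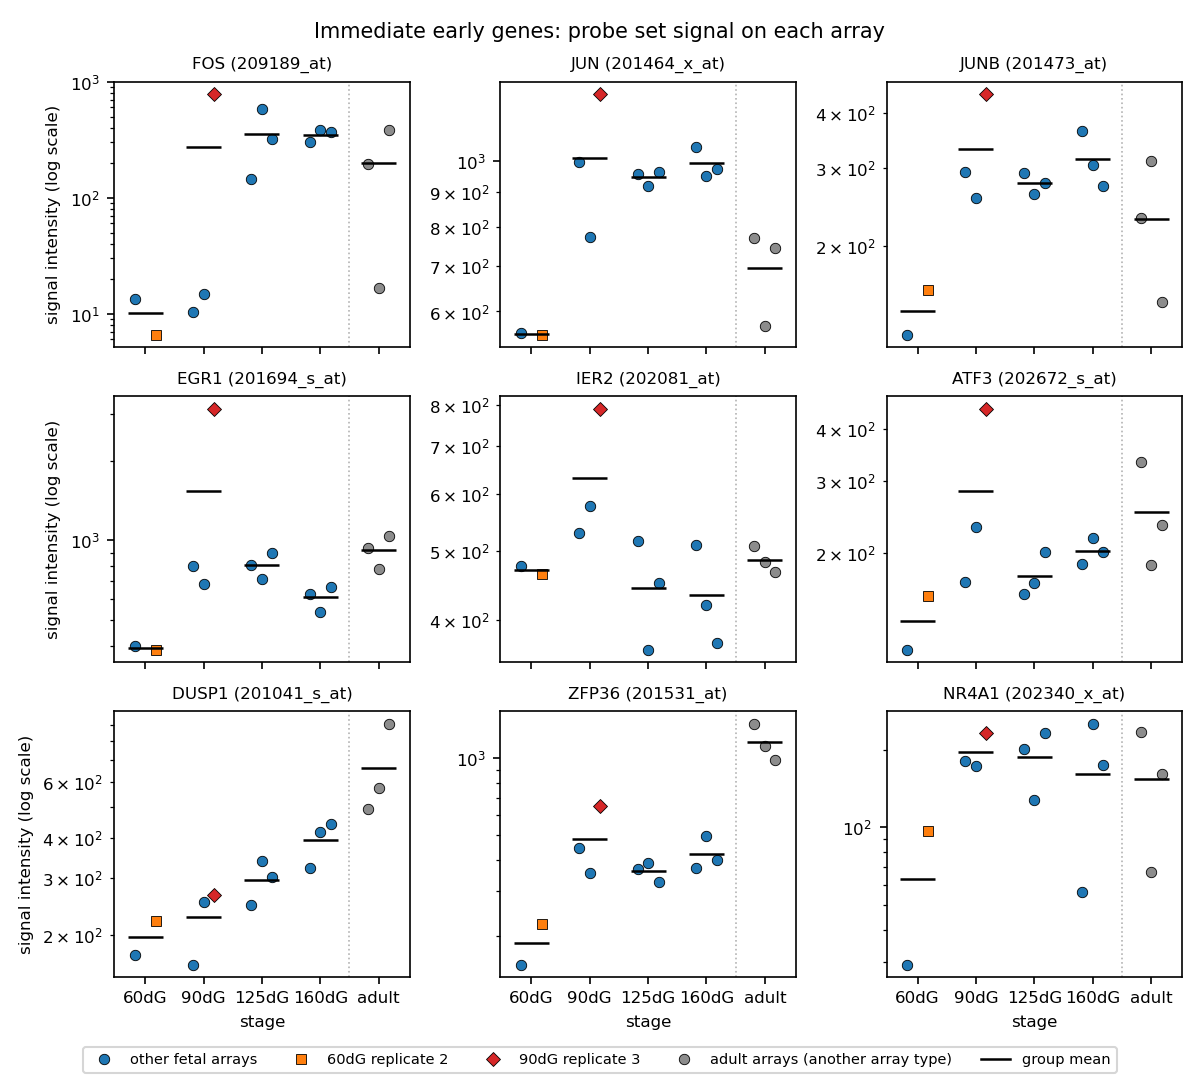
Signal intensity (log scale, each panel with its own range) of the brightest probe set of each gene on each array, by stage from 60dG to adult. Horizontal bars are group means. The diamond is 90dG replicate 3, the square 60dG replicate 2, and grey points right of the dotted line are adult arrays of another type. FOS lies below 15 on 4 early arrays and above 145 on the others of the fetus, and the diamond is the highest fetal point for FOS, JUN, JUNB, EGR1, IER2, ATF3 and ZFP36.

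JUN and JUNB, the AP-1 partners of FOS, were lowest at 60dG and close to level afterwards. JUN (201464_x_at) read 557.7 and 554.7 at 60dG, 997.6, 771.6 and 1256.1 at 90dG, 956.7, 917.9 and 963.2 at 125dG, and 1048.8, 950.4 and 973.8 at 160dG. Every later array exceeded both 60dG arrays, and the 60dG pair differed by a ratio of 1.01. JUN rose by 0.81 ± 0.20 (SE) on the log2 scale in 90dG over 60dG and by 0.81 ± 0.20 in 160dG over 60dG (limma, adjusted p = 0.0234 and 0.0181). JUN probe set 201466_s_at, below the filter, read 238.6, 146.1 and 221.3 at 90dG against 100.4 and 89.6 at 60dG, and no later fetal array was under 108.7. Its log2 difference of 0.95 ± 0.33 did not pass when tested without the filter (limma, adjusted p = 0.131). The third, 213281_at, overlapped between stages in each comparison (0.29 ± 0.31 for 90dG minus 60dG, limma adjusted p = 0.594). The suffixes _x_at and _s_at mark probe sets that may share sequence with other transcripts.

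JUNB read 126.2 and 159.1 at 60dG, 294.6, 257.1 and 443.0 at 90dG, 293.5, 262.9 and 278.6 at 125dG, and 364.1, 305.4 and 274.1 at 160dG. The 60dG arrays were the lowest of the 11 and overlapped with no later stage. JUNB rose by 1.10 ± 0.25 in 90dG over 60dG and by 1.06 ± 0.25 in 160dG over 60dG on the log2 scale (limma, adjusted p = 0.0168 and 0.0143). Without 90dG replicate 3 the 90dG differences were 0.88 for JUNB and 0.64 for JUN and missed the threshold (limma, adjusted p = 0.0532 and 0.0689), and without 160dG replicate 1 the 160dG differences were 0.95 and 0.77 and did too (limma, adjusted p = 0.0546 and 0.0553).

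EGR1, a zinc finger transcription factor, had the most uneven signal among the tested members. Probe set 201694_s_at read 399.4 and 387.1 at 60dG, 799.2, 682.5 and 3146.7 at 90dG, 811.3, 714.7 and 899.8 at 125dG, and 628.4, 536.5 and 669.1 at 160dG. On 90dG replicate 3 it was 3.94 times the next 90dG array, and all later arrays exceeded the 60dG pair. EGR1 rose by 1.57 ± 0.46 in 90dG over 60dG (limma, adjusted p = 0.0470). Without 90dG replicate 3 the difference was 0.88 and still passed (limma, adjusted p = 0.0331), and over 22 alternatives its adjusted p ran from 0.0213 to 0.258 and the call was lost in 13. The dimmer EGR1 probe set, 201693_s_at, read 78.6, 138.0 and 468.9 at 90dG against 49.5 and 108.9 at 60dG, with its peak on the same array, and did not pass (limma without the filter, adjusted p = 0.294).

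NR4A1, an orphan nuclear receptor, was dim on its 3 probe sets, none of which lay above the filter. The brightest, 202340_x_at, averaged 62.9 ± 47.5 at 60dG (SD, n = 2), 196.1 ± 32.2 at 90dG, 187.3 ± 53.8 at 125dG and 161.3 ± 99.3 at 160dG (SD, n = 3 each). Its 90dG arrays lay above both 60dG arrays, and its 160dG arrays ran from 55.9 to 253.2, across the range of the other stages. None of its 3 probe sets passed in any comparison when tested without the filter, and 90dG minus 60dG for 202340_x_at was 1.56 ± 0.51 (limma, adjusted p = 0.111). The remaining probe sets ran from 32.8 to 296.8 (210226_at) and from 15.3 to 39.6 (211143_x_at) in the fetus.

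ATF3, a stress-induced factor of the ATF/CREB family, and IER2, a nuclear protein of the early response, did not pass in any comparison with all arrays. ATF3 read 170.6, 231.0 and 449.0 at 90dG against 116.6 and 157.6 at 60dG, without overlap, a log2 difference of 0.87 ± 0.33 (limma, adjusted p = 0.117). That difference was 0.50 without 90dG replicate 3 and 0.40 with the GAPDH ratio as a covariate (limma, adjusted p = 0.329 and 0.506), and without 90dG replicate 1 it was 1.16 and passed (limma, adjusted p = 0.0274). Its 125dG arrays read 158.8 to 201.5 and its 160dG arrays 188.7 to 217.5. IER2 read 476.2 and 463.4 at 60dG, 530.0, 576.9 and 790.8 at 90dG, 515.8, 363.4 and 450.7 at 125dG, and 509.2, 419.1 and 371.1 at 160dG. Its difference of 90dG minus 60dG was 0.40 with all arrays and 0.23 without 90dG replicate 3 (limma, adjusted p = 0.281 and 0.592). IER2 is the one tested member whose 60dG arrays were inside the range of the 125dG and the 160dG arrays and whose 160dG minus 60dG difference was negative (-0.12 ± 0.22, limma adjusted p = 0.801). Its 125dG arrays all lay below its 90dG arrays, a log2 difference of -0.49 ± 0.20 that did not pass (limma, adjusted p = 0.144).

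DUSP1, the phosphatase that inactivates MAP kinases, was called in 160dG against 60dG and not in 90dG against 60dG. Probe set 201041_s_at read 172.4 and 219.9 at 60dG, 161.4, 252.6 and 265.6 at 90dG, 248.3, 339.2 and 302.9 at 125dG, and 323.6, 418.1 and 444.0 at 160dG. The 90dG arrays overlapped with those of 60dG, and all 160dG arrays lay above all arrays of both stages. DUSP1 rose by 0.95 ± 0.25 in 160dG over 60dG (limma, adjusted p = 0.0306), while 90dG minus 60dG was 0.17 ± 0.25 (limma, adjusted p = 0.704). The later difference missed the threshold when 160dG replicate 2 was left out, at 0.91 (limma, adjusted p = 0.0781), or 160dG replicate 3, at 0.86 (limma, adjusted p = 0.0960), or either of the 60dG arrays, at 0.79 without replicate 1 and 1.11 without replicate 2 (limma, adjusted p = 0.247 and 0.0705). Whether its time course differed from that of JUN or JUNB was not tested. Its dimmer probe set, 201044_x_at, averaged 114.1 ± 32.8 at 160dG (SD, n = 3) against 25.1 ± 3.96 at 60dG (SD, n = 2), and rose by 1.64 ± 0.41 when tested without the filter (limma, adjusted p = 0.0355), where 201041_s_at just missed the threshold (limma, adjusted p = 0.0588).

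ZFP36, the RNA-decay protein tristetraprolin, had the smallest adjusted p of the members between 90dG and 60dG. It read 154.4 and 222.2 at 60dG, 443.8, 354.3 and 651.2 at 90dG, 368.6, 387.6 and 325.2 at 125dG, and 371.5, 494.8 and 398.0 at 160dG. Every later array lay above both 60dG arrays. ZFP36 rose by 1.27 ± 0.25 in 90dG over 60dG and by 1.11 ± 0.25 in 160dG over 60dG (limma, adjusted p = 0.0111 and 0.0134).

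**Figure D2:**
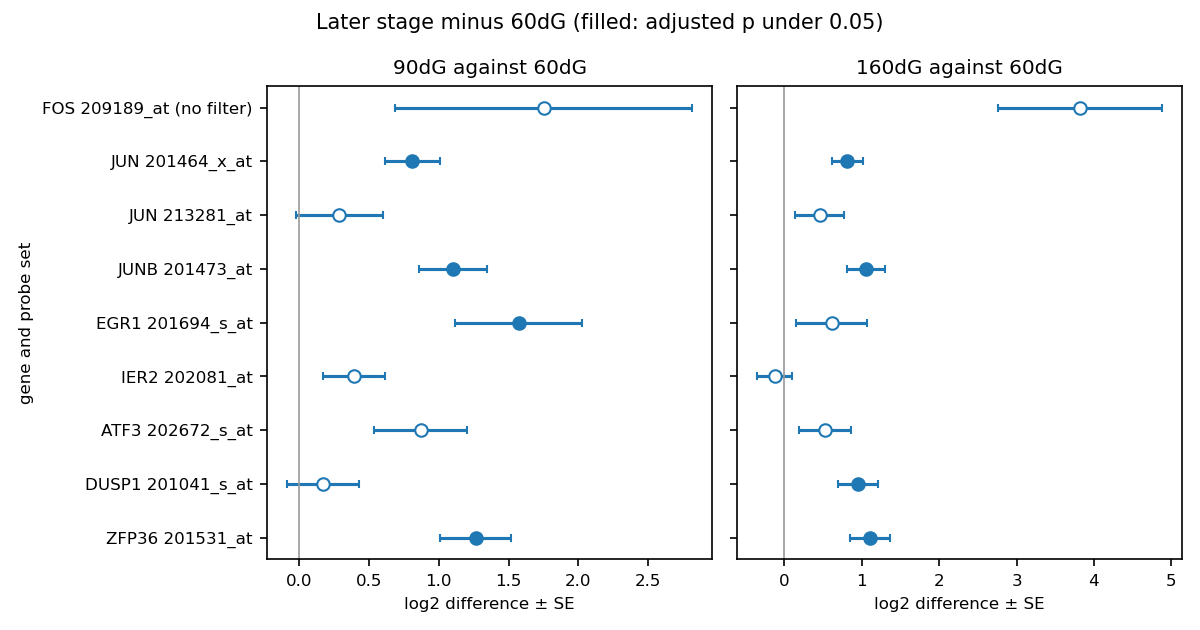
Log2 difference (x axis, points, with bars of ± 1 SE) of each tested member probe set and of FOS, which was fitted without the filter. The left panel is 90dG minus 60dG and the right panel 160dG minus 60dG, each with its own x range. Filled points passed adjusted p under 0.05. All 9 points on the left lie above 0, and on the right IER2 alone lies below it.

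Of the 8 member probe sets above the filter, which cover 7 genes, 4 differed over the 4 fetal stages: JUN (201464_x_at), JUNB, DUSP1 (201041_s_at) and ZFP36 (limma moderated F, adjusted p between 0.0164 and 0.0449). Over all probe sets tested, 17.8% did. In 90dG against 60dG 4 of the 8 rose (JUN, JUNB, EGR1 and ZFP36) and 0 fell, where 8.86% of all were called and 4.54% were called higher. In 160dG against 60dG 4 rose (JUN, JUNB, DUSP1 and ZFP36) and 0 fell, where 9.83% of all were called and 5.68% were called higher. The median log2 difference of the 8 was 0.84 and 0.71 in these comparisons, beside 0.00 and -0.02 for all tested. In each of these comparisons the arrays of 6 of the 8 lay above those of 60dG without overlap, as they did for 22.5% and 20.1% of all. Without the filter 3 of the 15 member probe sets were called in 90dG against 60dG (JUN, JUNB and ZFP36) and 4 in 160dG against 60dG (JUN 201464_x_at, JUNB, DUSP1 201044_x_at and ZFP36), beside 3.86% and 4.83% of all.

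Between later stages no member passed. In 125dG against 90dG limma called 0 of the 8 (6.77% of all), 1 had an unadjusted p under 0.05 (IER2, beside 25.5% of all), and the median log2 difference was -0.29. In 160dG against 125dG limma called 0 of the 8 (0.223% of all), 0 had an unadjusted p under 0.05 (beside 7.8% of all), and the median was 0.11.

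The calls against 60dG rest on 2 arrays. Without 60dG replicate 2, the array with the adrenal signal, ZFP36 remained called in 90dG against 60dG (1 of 8, beside 2.63% of all), and JUNB and ZFP36 in 160dG against 60dG (2 of 8, beside 5.7% of all). Without 60dG replicate 1, where the array with the adrenal signal is the only one left, 0 of 8 were called in either comparison (beside 1.18% and 3.81% of all). The sizes moved less than the calls: for ZFP36 in 90dG over 60dG the log2 difference was 1.51 without 60dG replicate 2 and 1.02 without replicate 1, and for JUN (201464_x_at) 0.81 and 0.82. JUN read 557.7 on the 60dG array without the adrenal signal and 554.7 on the one with it, and EGR1 (201694_s_at) 399.4 and 387.1. Across the members, 6 of the 8 probe sets above the filter had their lowest fetal signal on a 60dG array (20.1% of all tested). For 5 of the 8 both 60dG arrays were the lowest 2, a stricter rule whose share over all tested was not counted.

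**Figure D3:**
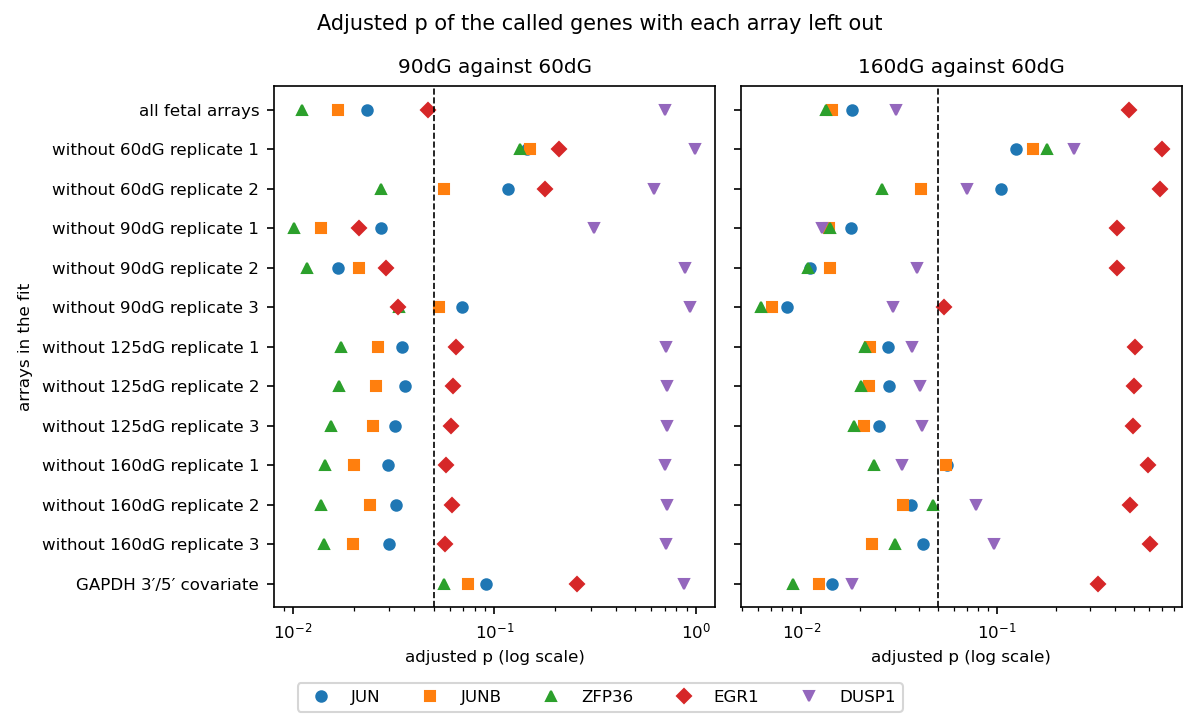
Adjusted p (log scale) of JUN (201464_x_at), JUNB, ZFP36, EGR1 and DUSP1 in 90dG against 60dG (left) and 160dG against 60dG (right), with all 11 fetal arrays, with each left out, and with the GAPDH ratio as a covariate. The dashed line is 0.05. Leaving out 60dG replicate 1 puts every point right of the line in both panels, and leaving out 60dG replicate 2 leaves ZFP36 left of it on the left and JUNB and ZFP36 on the right.

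On 90dG replicate 3 the members were high together. It was the highest fetal array for 6 of the 8 tested probe sets (JUN 201464_x_at, JUNB, EGR1, IER2, ATF3 and ZFP36), where it was highest for 15.9% of all tested, and for 8 of the 15 without the filter (12.5% of all). DUSP1 and JUN 213281_at were not highest there. EGR1 alone of the 8 exceeded each other 90dG array by more than 2 times (0.273% of all tested), and its excess of 3.94 times compares with 1.94 for ATF3, 1.50 for JUNB, 1.47 for ZFP36, 1.37 for IER2 and 1.26 for JUN. FOS, outside the filter, read 791.3 there, and the other two 90dG arrays lay near the floor, so no ratio is given.

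The same array had the highest 3′ to 5′ ratio of GAPDH and of actin (3.43 and 3.03), and its signal of smooth muscle, pericyte and fibroblast markers was the highest of the fetus (11 genes, summed signal 39690). So was its signal of endothelial markers, by less (10 genes, summed signal 3621, against 3571 on the next array, 125dG replicate 2). With the GAPDH ratio as a covariate, 0 of the 8 passed in 90dG against 60dG (4.79% of all did) and the closest was ZFP36 (limma, adjusted p = 0.0559). The log2 differences were then 0.70 for JUN, 0.94 for JUNB, 1.03 for ZFP36 and 0.83 for EGR1, beside 0.81, 1.10, 1.27 and 1.57 without the covariate. The same covariate left JUN, JUNB, DUSP1 and ZFP36 called in 160dG against 60dG (12.8% of all). On 90dG replicate 1, whose GAPDH ratio of 1.78 was within the range of the other stages and whose spike-in signal was the lowest of the 11, JUN read 997.6, JUNB 294.6, EGR1 799.2 and ZFP36 443.8, each above both 60dG arrays, but FOS read 10.3. Leaving out that array instead kept these 4 genes called and added ATF3 (5 of the 8, beside 13.6% of all). With both 90dG replicates 2 and 3 left out, the log2 differences of 90dG minus 60dG were 0.82 for JUN, 0.98 for JUNB, 0.99 for EGR1 and 1.19 for ZFP36, and none passed (limma, adjusted p between 0.0548 and 0.0939, where 2.41% of all did).

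**Figure D4:**
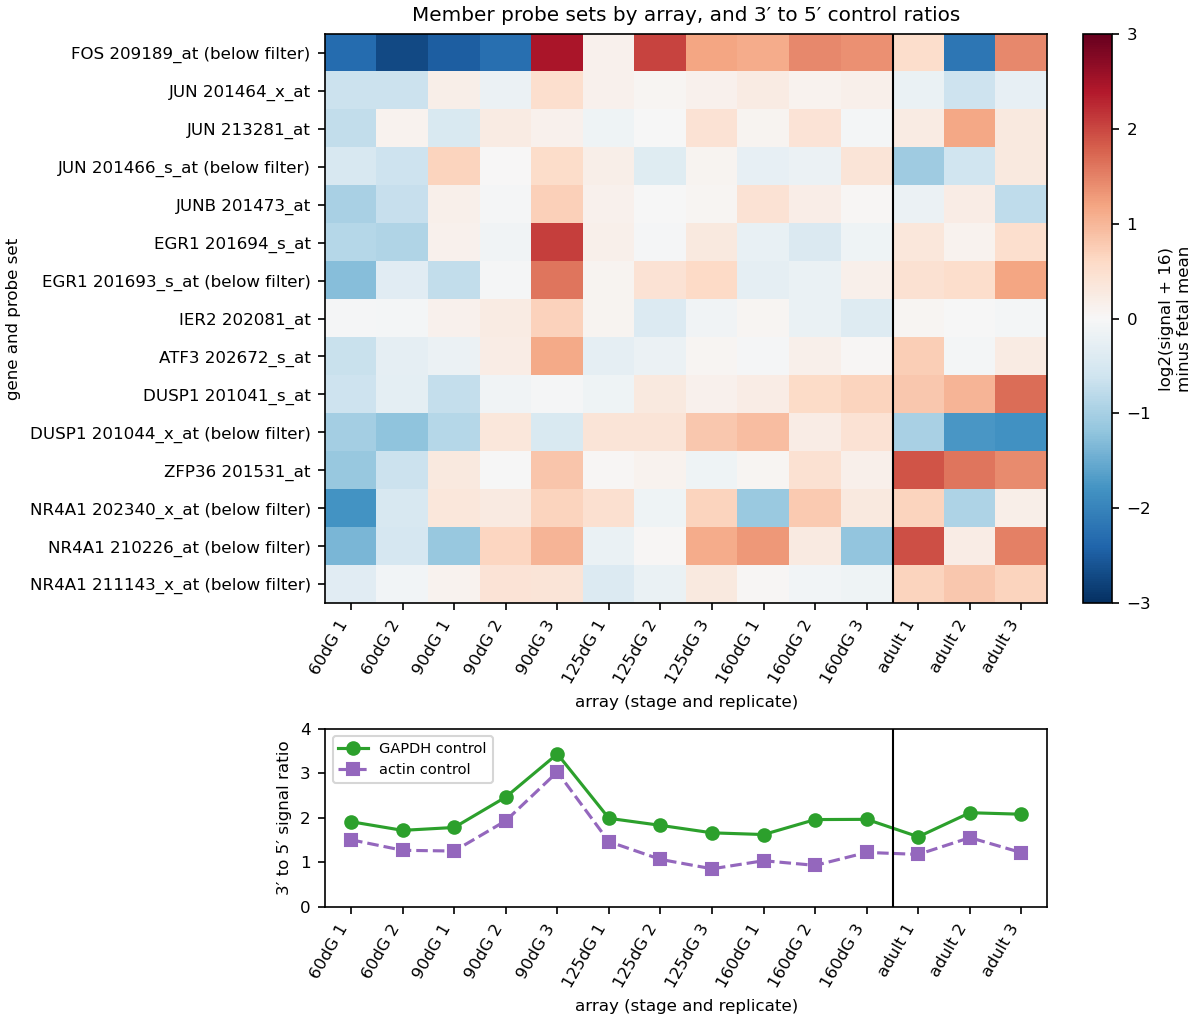
Top: log2(signal + 16) of each member probe set (rows) on each array (columns), relative to its mean over the 11 fetal arrays, from blue (lower) to red (higher). The black line parts the adult arrays, of another array type, from the fetal ones. Bottom: the 3′ to 5′ signal ratio of the GAPDH and actin control probe sets on the same arrays. The 60dG columns are mostly blue, and 90dG replicate 3, with the highest ratios of 3.43 and 3.03, is the reddest for FOS and EGR1.

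Replicate scatter differed between the members. The residual SD on the log2 scale was 0.65 for EGR1, larger than for 97.8% of the tested probe sets, and 0.39 for ATF3, larger than for 82.1%. It was 0.19 for JUN (201464_x_at), larger than for 22.1%. The median over the 8 was 0.28, against 0.27 for all tested. Among the 36 pairs of the 9 genes, each by its brightest probe set, the Pearson r over the 11 fetal arrays had a median of 0.61 and was above 0 in 34 pairs. The tightest pair was JUN with JUNB (r = 0.97), and IER2 with DUSP1 was lowest (r = -0.45). Of deviations from the stage means the median r was 0.59, and FOS with EGR1 was the tightest (r = 0.89). These values share arrays and the array 90dG replicate 3. Without it the median r over 10 arrays, stage differences included, was 0.56, and FOS with EGR1 was 0.43, beside 0.54 over the 11. Correlations of deviations were not computed without that array.

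In adult kidney ZFP36 lay above every fetal array, and JUN (201464_x_at) lay below its 160dG level. ZFP36 read 1371.6, 1114.9 and 983.4 in adults, an average of 1157 ± 197 against 421 ± 64.9 at 160dG (SD, n = 3 each), a ratio of 2.74. DUSP1 (201041_s_at) averaged 659 ± 220 in adults against 395 ± 63.4 at 160dG, but its probe set 201044_x_at averaged 16.3 ± 11.2 in adults against 114.1 ± 32.8 at 160dG, so its probe sets disagreed in direction. EGR1 (201694_s_at) averaged 918 ± 128 in adults against 611 ± 67.9 at 160dG, and JUN (201464_x_at) 695 ± 107 against 991 ± 51.4 (SD, n = 3 each). Of the 8 tested probe sets, 3 lay above all 160dG arrays in all adults and 1 below, where 18.7% and 33.9% of all did, a count of 4 of 8 without overlap beside 52.6% of all. JUNB, IER2, ATF3 and JUN 213281_at overlapped. Adult replicate 3 was the highest adult for FOS (383.5), EGR1 (1037.4 on 201694_s_at and 346.3 on 201693_s_at), DUSP1 201041_s_at (909.4) and JUN 201466_s_at (181.3). It was the lowest for JUNB (149.9), ZFP36 (983.4), IER2 (466.1) and DUSP1 201044_x_at (9.2).

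Other genes of the early response followed the members in part. Of 35 such genes with a probe set, 24 had tested probe sets, 31 in all, and in 90dG against 60dG 3 of the 31 rose and 0 fell, where 4.54% of all tested rose. The 3 were both probe sets of CCN1, a matrix protein that signals through integrins, and that of RHOB, an early-induced small GTPase. CCN1 (201289_at) read 694.0, 776.5 and 1391.2 at 90dG against 290.5 and 302.4 at 60dG and rose by 1.57 ± 0.25 (limma, adjusted p = 0.00382), without overlap and with its highest 90dG reading on replicate 3. RHOB read 2063.1, 1603.2 and 2126.8 at 90dG against 896.9 and 950.2 at 60dG and rose by 1.04 ± 0.17 (limma, adjusted p = 0.00383). CCN1 (201289_at) also passed without 90dG replicate 3 (1.26, limma adjusted p = 0.00560) and without either 60dG array (limma, adjusted p = 0.0487 and 0.0275 without replicates 1 and 2). RHOB missed the threshold without 60dG replicate 1 (1.00, limma adjusted p = 0.0550), and the other CCN1 probe set, 210764_s_at, missed it without either 60dG array (limma, adjusted p = 0.111 and 0.0729). That left 1 of the 31 called higher without 60dG replicate 1 and 2 without replicate 2, where 0.942% and 1.75% of all tested were. The median of the 31 was 0.49, beside 0.00 for all tested, and 27 of them were positive, beside 50.2% of all tested.

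After 90dG the list was mixed. In 125dG against 90dG 3 of the 31 fell, where 2.98% of all tested fell. RHOB fell by 0.54 ± 0.15, KLF10 by 0.87 ± 0.21 and DUSP6 (208892_s_at), a phosphatase of ERK, by 1.02 ± 0.23 on the log2 scale (limma, adjusted p = 0.0487, 0.0272 and 0.0215). Without 90dG replicate 3 the differences were -0.46, -0.67 and -0.94 and none of these 3 passed (limma, adjusted p = 0.156, 0.105 and 0.0797). RHOB also missed the threshold when either 60dG array was left out (limma, adjusted p = 0.0678 and 0.0675). In 160dG against 60dG 5 rose and 2 fell, beside 5.68% and 4.15% of all tested. CCN1 (201289_at) rose by 1.97 ± 0.25 and RHOB by 0.78 ± 0.17. Both falls were DUSP6 probe sets, 208891_at and 208893_s_at (-1.20 and -1.53, limma adjusted p = 0.0196 and 0.0166). These did not pass in 125dG against 90dG (-0.77 and -0.55, limma adjusted p = 0.0902 and 0.316). DUSP6 208892_s_at did not pass in 160dG against 60dG (-0.71, limma adjusted p = 0.0981). KLF6 (208961_s_at) and BTG1 (200921_s_at) also rose in 160dG against 60dG, by 1.05 and 0.59 on the log2 scale (limma, adjusted p = 0.0356 and 0.0250, named after their values were seen). The other tested BTG1 probe set, 200920_s_at, did not pass (0.71, limma adjusted p = 0.197). Without 60dG replicate 1, 3 rose and 0 fell (2.6% and 1.2% of all tested), and without replicate 2, 2 rose and 1 fell (3.61% and 2.1%). RHOB was not among those called in either case (limma, adjusted p = 0.102 and 0.0519).

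Kinases and transcription factors that switch the early genes on had calls in opposite directions in the steps before and after 90dG. Of 15 tested probe sets of 9 genes, 3 fell and 0 rose in 90dG against 60dG, where 4.33% of all tested fell, and the median was -0.55, beside 0.00 for all. In 125dG against 90dG 3 rose and 0 fell, where 3.79% of all tested rose, with a median of 0.30, and the median of 160dG minus 60dG was 0.01. Both steps share the 90dG arrays. Without 90dG replicate 3, 0 of the 15 were called in either step, where 1.79% of all tested fell in the first and 1.21% rose in the second. With the GAPDH ratio as a covariate 1 fell in the first (2.41% of all tested) and 0 rose in the second (1.2% of all tested). With all arrays, CREB1, which binds cAMP response elements, fell by 1.26 ± 0.34 and ATF2 by 1.44 ± 0.38 on the log2 scale in 90dG against 60dG (limma, adjusted p = 0.0359 and 0.0318). ATF2 read 317.0, 121.0 and 87.7 on 90dG replicates 1 to 3, against 532.6 and 361.0 at 60dG, with the low values on the arrays of raised 3′ to 5′ ratio. Without 90dG replicate 3 CREB1 and ATF2 were at -0.94 and -1.09, and without 90dG replicates 2 and 3 at -0.37 and -0.45, and neither passed (limma, adjusted p = 0.109, 0.0935, 0.490 and 0.430). Without 60dG replicate 2 neither passed (limma, adjusted p = 0.215 and 0.0773). Of 14 tested heat shock and stress probe sets, 3 fell and 0 rose in 90dG against 60dG, where 4.33% of all tested fell, and 4 of the 14 differences were positive. HSPH1 (206976_s_at) fell by 0.89 ± 0.24 there (limma, adjusted p = 0.0346). It was the 1 of 14 called in 160dG against 60dG, at -1.33 ± 0.24 (limma, adjusted p = 0.00266), where 4.15% of all tested fell. HSPE1 was at 0.65 ± 0.31 in 90dG over 60dG and not called (limma, adjusted p = 0.205). It was the 1 of 14 called in 125dG against 90dG, at -1.20 ± 0.28 (limma, adjusted p = 0.0247), where 2.98% of all tested fell. For the chaperone HSP90AA1 in 90dG against 60dG, 211968_s_at fell by 1.21 (limma, adjusted p = 0.0318), and 210211_s_at and 214328_s_at did not pass (-0.28 and -0.60, limma adjusted p = 0.519 and 0.171). Its probe set 211969_at fell by 1.34 ± 0.28 (limma, adjusted p = 0.0124). HSP90AA1 passed without 90dG replicate 3 (-1.15, limma adjusted p = 0.0414) and not without 60dG replicate 1 or 2 (limma, adjusted p = 0.0744 and 0.0965). Of 11 hypoxia response probe sets, 0 were called in limma for 90dG against 60dG, where 8.86% of all tested were. In 125dG against 90dG 1 of the 11 rose, where 3.79% of all tested did. It was 210513_s_at of VEGFA, the vascular growth factor, at 0.96 ± 0.27 (limma, adjusted p = 0.0465). No other VEGFA probe set was called there. Without 90dG replicate 3 the difference of 210513_s_at was 0.65 and did not pass (limma, adjusted p = 0.161). It was also not called without either 60dG array.

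**Figure D5:**
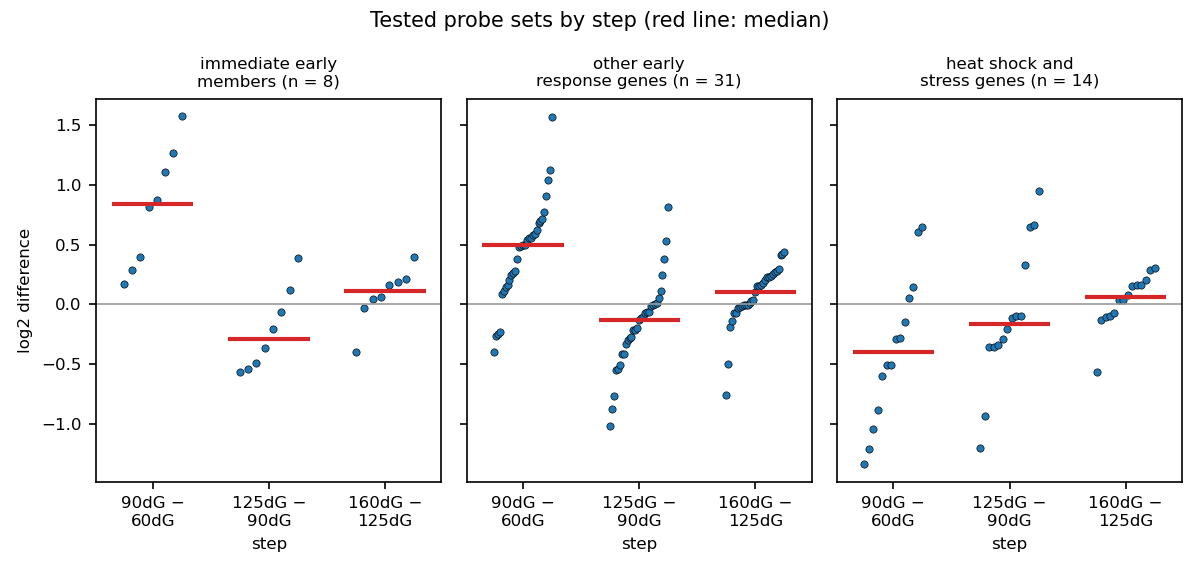
Log2 difference (y axis) of each tested probe set in each step between successive stages (x axis), for the 8 members, the 31 probe sets of other early response genes and the 14 of heat shock and stress genes. Points are probe sets, sorted within a step, and the red lines are medians. In 90dG minus 60dG the medians are 0.84, 0.49 and -0.39.

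Signals of cell type markers were summed on each array, and these sums were not tested. The summed signal of the 11 kidney genes was 9725 to 11377 at 90dG against 6380 to 6575 at 60dG, that of the 12 leukocyte genes 1533 to 1673 against 1016 to 1135, with 9 of the 12 below the filter, PTPRC and CD14 among them, and that of the 10 endothelial genes 2944 to 3621 against 2363 to 2712. Smooth muscle, pericyte and fibroblast genes summed to 29485 to 39690 at 90dG against 25290 to 26862 at 60dG, and erythroid genes to 1710 to 3042 against 1868 to 3453. Of their tested probe sets, 3 of 19 kidney, 0 of 3 leukocyte, 0 of 9 endothelial, 1 of 4 erythroid and 3 of 14 smooth muscle, pericyte and fibroblast ones rose in 90dG against 60dG, where 4.54% of all tested did. The erythroid sums overlapped, and the other 4 were higher on every 90dG array than on both 60dG arrays. Their part in the members' differences was not tested.

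Among 5271 other genes, 8 had the pattern most like the mean of the 7 tested member genes over the 11 fetal arrays, by Pearson r. They were the focal adhesion protein TNS2 (r = 0.91), the TATA-binding protein TBP (r = 0.90), the growth factor receptor FGFR3 (r = 0.89), the TGF-beta inhibitor SMAD7 (r = 0.88), the gamma-tubulin complex protein TUBGCP2 (r = 0.88), the surface proteins CD99 and CD81 (r = 0.87 each) and CCN1 (r = 0.87). CCN1 had the highest r without 90dG replicate 3 (0.95), and TUBGCP2 the lowest (0.72). They were chosen on the same arrays, so their differences between stages repeat the choice and were not used as a test. CCN1 is the one of the 8 that is also in the early response list.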

How the data were processed

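Total RNA of whole kidney was extracted with Trizol, labelled with biotin and hybridised to human Affymetrix arrays, per the labels. The deposited values are linear signal intensities, 1 for each probe set, which the authors made with GCOS, per the submitters' processing notes. No version, signal algorithm or scaling target is stated there. Groups came from the labels and gene symbols from the platform annotation, where, controls aside, 14068 probe sets have 1 symbol, 735 have several and 1340 have none. Genome positions and sequences were not used here.

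From the deposited intensity, log2(signal + 16) was computed, which understates the changes of dim probe sets. Probe sets with a fetal mean above the median were fitted with limma 3.58.1 in R 4.3.3 (stage as a factor, 11 fetal arrays, eBayes with an intensity trend), with Benjamini-Hochberg adjustment over all 8066 and a threshold of 0.05. Adult arrays were not tested. The members and the gene lists were chosen with earlier results of these data known, so no count over them is independent support. All member probe sets are named, with up to 4 genes per pathway list that passed the moderated F and changed most between 60dG and 90dG, and the 8 genes most like the members. Marker genes are given as counts and sums, and exceptions are stated.

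Same-numbered fetal replicates were not paired: of 15 same-number pairs, 3 had a correlation of deviations over 0.1 (range -0.10 to 0.20). Alternatives were other pseudocounts (1 and 64), no filter or one at the 0.75 quantile, quantile normalization, no trend, array weights, a replicate block, 1 probe set per gene, the GAPDH 3′ to 5′ ratio as a covariate, and leaving out the 90dG group or each array. Leaving out 90dG replicates 2 and 3 together, the fits of FOS without the filter, and those of the pathway lists without single arrays were chosen after seeing the data. The model was tested on simulated data with 200 changed probe sets among 8066. Noise there was normal and independent between arrays, so no simulated array stood apart as 60dG replicate 2 and 90dG replicate 3 did. Of the simulated calls, 2.34% to 6.76% were false. Of 2-fold changes it recovered 50.0% for 90dG against 60dG, 55.5% for 125dG against 90dG, 62.5% for 160dG against 125dG and 43.5% for 160dG against 60dG, and of 4-fold changes at least 92.5%. The number of arrays limits the precision, and p-values measure the spread between them. Figures were drawn with matplotlib 3.10.9.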

Additional observations from a re-analysis of the deposited data

How the results depend on the processing

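With 2 arrays at 60dG, the counts of called members depended most on that stage. Leaving out each fetal array in turn, limma called 0 to 5 of the 8 tested member probe sets over the stages, 0 to 5 in 90dG against 60dG and 0 to 4 in 160dG against 60dG, with 0 throughout in the later steps. The 0 in each of the first 3 came without 60dG replicate 1. The shares over all tested were also lower there than with all arrays. The 5 in each of the first 2 came without 90dG replicate 1, where the shares over all tested were also higher, at 22.5% and 13.6%. Beside the 0 in the later steps, the shares over all tested ran from 1.64% to 12.6% in 125dG against 90dG. In 160dG against 125dG they were at most 0.335%. Without 90dG replicate 3, 2 were called in 90dG against 60dG (EGR1 and ZFP36, beside 4.43% of all tested). Without 160dG replicate 1, 2 were called in 160dG against 60dG (DUSP1 and ZFP36, beside 7.24% of all tested). With the filter at the 0.75 quantile 3 member probe sets were left, and 1, 2 and 1 of them were called over the stages, in 90dG against 60dG and in 160dG against 60dG, since fewer were tested. Over all tested with that filter, 25.5%, 13.6% and 14.6% were called. The GAPDH covariate gave 0 calls in 90dG against 60dG, and so did leaving out 90dG replicates 2 and 3 (chosen after seeing the data). The cause was not tested. The replicate number as a replicate block, which the check did not bear out as a pairing, left 2 calls over the stages (DUSP1 and ZFP36), 3 in 90dG against 60dG and 4 in 160dG against 60dG. Over all tested with that block, 15.1%, 6.52% and 8.17% were called. In 6 of 11 arrays the best correlation of deviations was with an array of the same number. Adult against 160dG, 4 of the 8 member probe sets did not overlap (52.6% of all tested), and 7 of 15 without the filter (49.1% of all). With an array left out it was 4 to 6 of the 8, and the share over all was not counted there. No alternative turned the direction of a called difference. The FOS signals at 60dG lie near the floor of the arrays, where differences on the log2(signal + 16) scale are understated.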
